A study of Mus musculus with 2 samples.

Results

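Frzb and 9 other genes of the Wnt pathway were followed in tibialis anterior muscle of adult male C57BL/6 mice, on 1 microarray of control muscle and 1 of muscle transgenic for activated Notch2 (N2ICD), called N2ICD-mTG in the labels. The N2ICD form of this receptor signals without a ligand. The set holds 6 secreted proteins of the frizzled-related and Dickkopf families besides Frzb (Sfrp1, Sfrp2, Sfrp4, Sfrp5, Dkk2 and Dkk3), the feedback inhibitor Axin2 and the receptors Fzd4 and Fzd7. The genes were chosen by name, with earlier results of these 2 arrays known, because Frzb was strongly lower in the N2ICD muscle, so the Frzb value is a description and supports nothing further. They are 10 of 27466 named genes on the array, and every probe carrying one of the names in the scanner files was used. The labels give neither the promoter that drives the transgene nor the alleles of the controls, and do not say whether animals were pooled.

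Wnt proteins are secreted ligands that bind Frizzled receptors on the cell surface, together with the co-receptors Lrp5 and Lrp6. In the canonical branch this protects β-catenin from the destruction complex built on Axin, and β-catenin then turns on target genes, Axin2 among them. Secreted frizzled-related proteins, of which Frzb (also named Sfrp3) is one, carry a domain like the ligand-binding part of Frizzled and can capture Wnt proteins outside the cell, whereas Dickkopf proteins act on the co-receptors. In skeletal muscle Wnt signalling is known for roles in the formation of muscle during development and in satellite cells, the stem cells of the adult fibre.

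Each value rests on a probe of 60 bases. The first 30 bases of 6 probes are shown here, those of the genes that differed most and of the genes read by a pair of probes, with their positions on mm9. The Frzb probe lies at chr2:80252582-80252641 on the minus strand and the Dkk3 probe at chr7:119259556-119259615, also on the minus strand. The Axin2 probes lie at chr11:108803927-108803986 and chr11:108812034-108812093, and the Fzd7 probes at chr1:59541367-59541426 and chr1:59543192-59543251, all on the plus strand. The number after a gene's name is the position of the probe in the transcript.
Frzb 2405: gtgcaccagggtgttatttaacagaggtat
Dkk3 3274: gcctgtaaatcgcatctgaagataccacag
Axin2 1971: tcctgggggaacagattattattgctactc
Axin2 4196: cttggtacaataattattgtaattaagaga
Fzd7 2376: agccccgactttacagtcttcatgatcaag
Fzd7 4201: aagggaaggtgaacttcaaagtgattctgg
In each pair the downstream probe was well above background on both arrays and the upstream probe on neither. For Axin2 the probes stand 2225 bases apart in the transcript, and the downstream probe holds 20.0% G and C against 48.3% in the upstream one. For Fzd7 they stand 1825 bases apart, with 38.3% and 48.3%.

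Signals were intensities from the scanner files, divided by the array's 75th percentile, and levels are the log2 of that ratio. Differences are log2 levels, N2ICD minus control. With 1 array per group there was no replicate and no test, so genotype, animal, dissection and array cannot be told apart for any value here. Measurement error came from 2 sources. The scanner software's error model gave an SD for each spot, from which the SD of a difference was computed, and spots of one probe printed several times gave a measured spot noise of 0.14 (SD of the log2 difference, 268 probes). When the genes were cut into 4 equal bins by level, this noise ran from 0.26 in the dimmest bin to 0.05 in the brightest. Neither holds any spread between animals. Well above background were 24916 spots on the control array and 24982 on its N2ICD counterpart, of 59305 that were no controls, and 0 of these were saturated. All 13 muscle fibre markers were measured on both arrays. Notch2 itself was at least 7.72-fold higher in N2ICD by the probe at transcript position 7448, with signals of 6.01 and 221, while the probe at position 10129 gave -0.25. The Notch target Hes1 was 5.59-fold higher. Hey1, Heyl and Nrarp, other Notch targets, were 1.45-fold, 1.61-fold and 1.92-fold higher, each within 2-fold.

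Frzb was lower and Dkk3 was higher in the N2ICD muscle, and the other 6 measured genes of the set lay between -0.57 and 0.33. Of the 10 genes, 8 had a probe well above background on both arrays, and Sfrp1 and Dkk2 were above background on neither. Among the 8, 1 was at least 2-fold lower and 1 at least 2-fold higher. The background was 13662 genes with a value from both arrays, of which 0.893% lay at or beyond 2-fold lower and 1.42% at or beyond 2-fold higher, with a median difference of 0.01 and an SD of 0.38. The median of the 8 was -0.21. Because the set was built around Frzb, the share of its members past 2-fold is not read against these percentages.

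**Figure D1:**
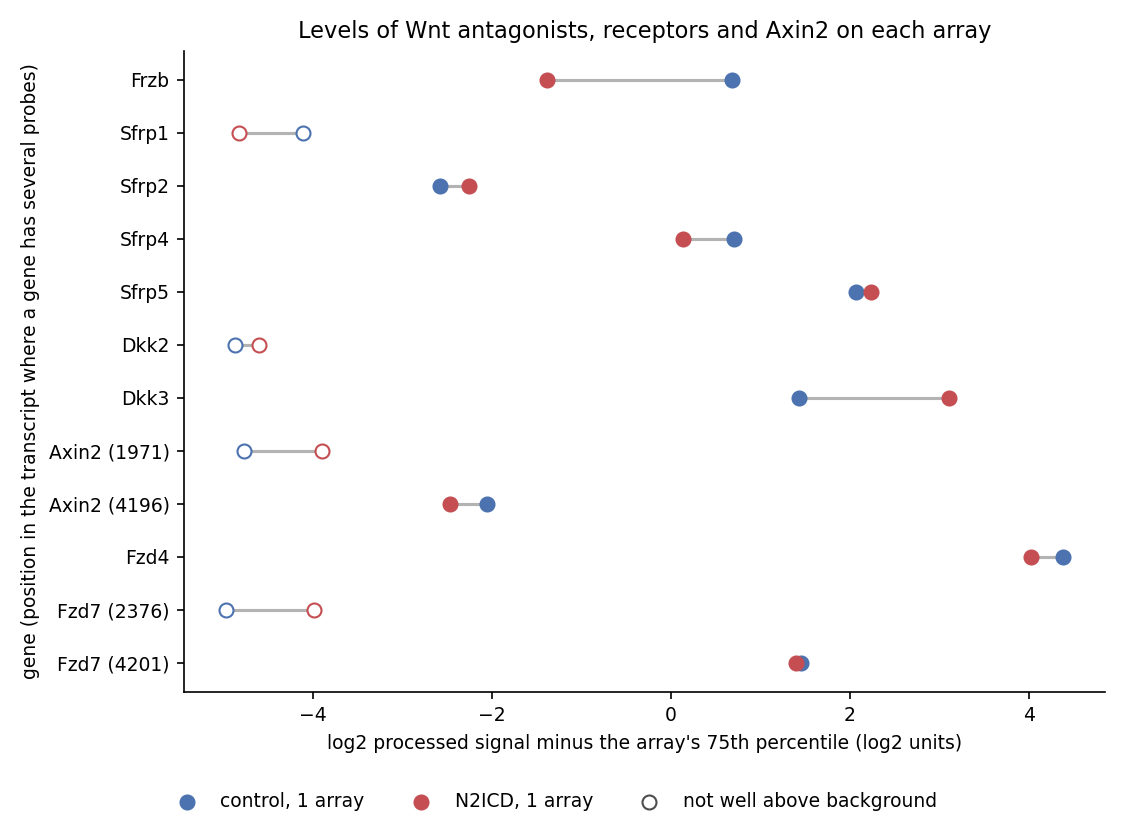
Level of each probe on the control array (blue) and the N2ICD array (red), as log2 processed signal minus the array's 75th percentile, with open circles where the spot was not well above background. Each row is 1 probe and levels compare within a row alone: Frzb moved from 0.68 to -1.38 and Dkk3 from 1.43 to 3.11, while the pairs of filled circles in the other rows lie close together.

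Frzb, a secreted decoy for Wnt ligands, had a processed signal of 271 ± 28 for the control and 72.9 ± 9.7 for the N2ICD muscle (scanner error model). The signal was thus lower in N2ICD by 3.71-fold before any scaling. Relative to the 75th percentile the levels were 0.68 and -1.38, a difference of -2.06, or 4.18-fold lower. The error model gave this difference an SD of 0.24, so the gap was 8.53 times that error, and it was 15.5 times the spot noise of 0.13 in its level bin. It held rank 9 from the lowest of 13662 genes with a value from both arrays. This filter leaves out genes that are dim in N2ICD, and the rank was 54 of 14641 with probes above background on at least 1 array and 72 of 27466 with no filter. In its bin, 29 of 3415 genes, or 0.849%, were at least 2-fold lower. The Frzb value rests on 1 probe with 1 spot per array. In the authors' deposited table the same probe is listed as 4.14-fold down, detected on both arrays.

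The size of the Frzb difference moved with the processing. It was -1.31 after normexp correction, which starts from the spot mean and adds an offset that draws dim signals together, and -1.59 on a scale set by spike-in controls, which moved the median of all genes to 0.48. On that scale 97.3% of all genes past 2-fold were higher in N2ICD, against 61.4% in the main scaling. The Frzb value stayed below -1 under all 7 alternative treatments of the signals, these 2 included. The spike-in scale, median scaling and the 75th percentile over spots above background on both arrays each add 1 amount to every gene. Values relative to the median of all genes are therefore those of the main scaling, -2.07 for Frzb in each. The deposited table also gave -2.07 by that measure. Only normexp correction, quantile normalization and a loess fit on level gave Frzb another value by it, -1.31, -2.04 and -2.03.

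The secreted relatives of Frzb did not share its difference in size. Sfrp4, another frizzled-related protein, read 276 in control against 209 in N2ICD muscle, with a difference of -0.57, which was 2.73 times its error-model SD of 0.21 and 4.31 times the spot noise of its bin. Of the 3 measured relatives it alone lay below 0, and the value was -0.10 on the spike-in scale. Sfrp5, an antagonist known from fat tissue for its action on Wnt5a, had 708 and 896, a difference of 0.17 that was smaller than its error of 0.20 and 2.10 times the spot noise. Sfrp2 was dim, at 28.2 and 39.9, and its difference of 0.33 was smaller than its error of 0.41, was 1.26 times the spot noise, and was 0.03 after normexp correction. The Sfrp1 probe had signals of 9.73 and 6.67, not well above background on either array, so no fold is given. Of the 4 frizzled-related genes with a value, Frzb, chosen for its low value, was past 2-fold and the 3 relatives were not. Over all genes 0.893% were at least 2-fold lower and 1.42% at least 2-fold higher. At these shares 3 genes would hold few or none past 2-fold, so the count is not read as a family contrast. No test of the differences among the family could be made.

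Dkk3 went the other way. Its signal was 457 ± 46 in control and 1641 ± 164 in N2ICD muscle, with levels of 1.43 and 3.11. The difference of 1.67 (3.19-fold higher) was 8.17 times its error-model SD of 0.20 and 20.9 times the spot noise of 0.08 in its level bin. Dkk3 is a secreted glycoprotein grouped with the Dickkopf family by sequence, whose effect on Wnt signalling differs between cell types. It held rank 36 from the highest of the genes with a value from both arrays, 104 with probes above background on at least 1 array and 152 with no filter. In its bin 35 of 3415 genes (1.02%) were at least 2-fold higher. The value ran from 1.54 after normexp correction to 2.15 on the spike-in scale. The authors' deposited table gives 3.23-fold up. Dkk2, which binds the co-receptors Lrp5 and Lrp6, had signals of 5.78 and 7.84, not well above background on either array. Frzb and Dkk3 thus lay 3.74 log2 units apart in their differences, a gap that is the same under any scaling by 1 factor per array.

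**Figure D2:**
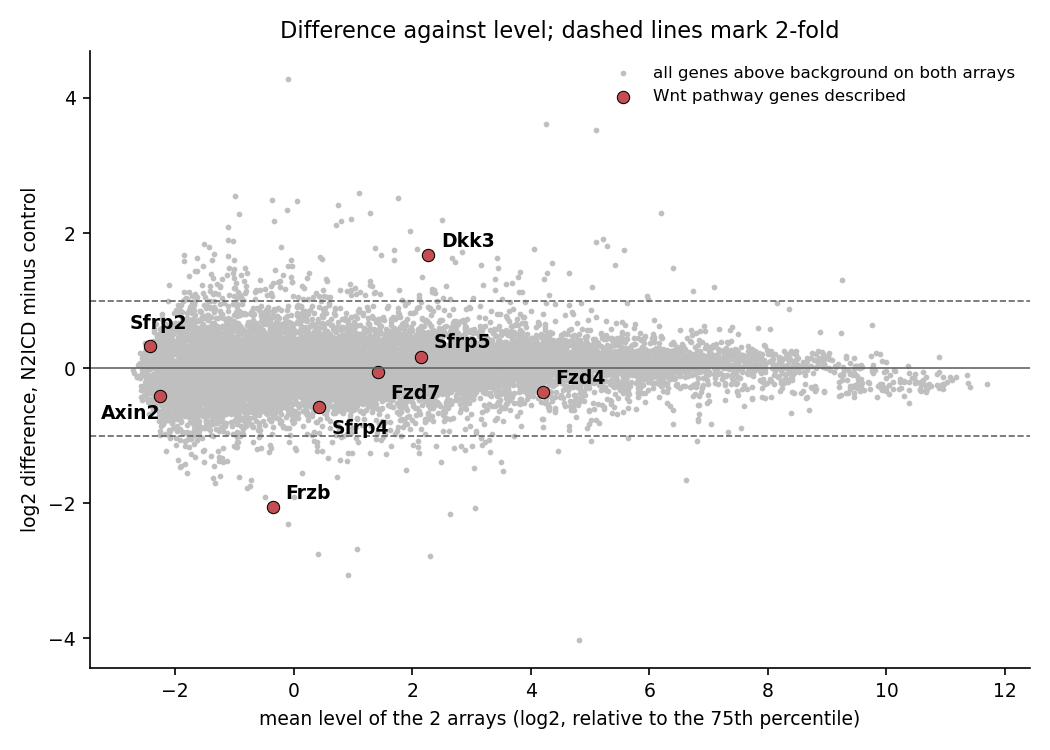
Log2 difference, N2ICD minus control, against the mean log2 level of the 2 arrays for 13662 genes (grey) and for the 8 measured genes described here (red, named), with dashed lines at 2-fold. Frzb at -2.06 and Dkk3 at 1.67 stand outside the dashed lines, and the 6 others lie within them.

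Axin2, both an inhibitor and a widely used target gene of canonical Wnt signalling, read 40.5 in control and 34.4 in N2ICD muscle at its downstream probe. The difference of -0.41 was about as large as its error of 0.39 and 1.56 times the spot noise. It was 0.07 on the spike-in scale, and -0.41 on either scale relative to the median of all genes. The upstream probe read 6.16 and 12.7, not well above background on either array. With no filter on dim probes, which averages both, the Axin2 value was 0.23.

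Of the receptors, Fzd4, which also binds Norrin in blood vessels, read 3526 in control and 3099 in N2ICD muscle. Its difference of -0.36 was 1.76 times its error-model SD of 0.20 and 6.66 times the spot noise of 0.05 in its bin. On the spike-in scale it was 0.12, and relative to the median of all genes it was -0.36 on both scales. Fzd7, a receptor known in satellite cells, had 463 and 501 at the downstream probe, a difference of -0.06 with an error of 0.21, which was 0.73 times the spot noise. Its raw signal was 1.08-fold higher in N2ICD and the scaled value slightly lower. The upstream Fzd7 probe read 5.37 and 12.0, not well above background, and with no filter the average of both was 0.46. Neither receptor passed 2-fold.

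**Figure D3:**
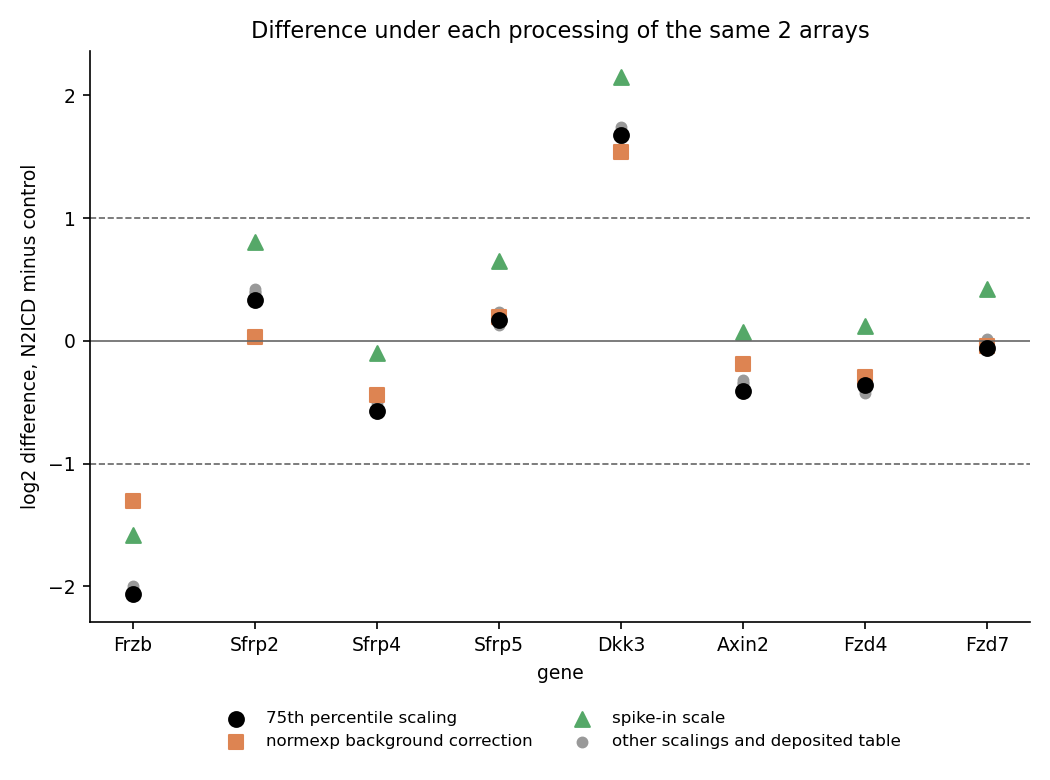
Log2 difference, N2ICD minus control, of the 8 measured genes under the 75th percentile scaling (black), normexp background correction (orange squares), the spike-in scale (green triangles) and the 4 other scalings and the deposited table (grey), all from the same 2 arrays. Frzb stays below -1 and Dkk3 above 1 at every point, from -2.08 to -1.31 and from 1.54 to 2.15, whereas Axin2, Fzd4 and Fzd7 have points on both sides of 0.

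The rest of the pathway was described from lists of ligands, receptors, antagonists, secretion factors, intracellular components and targets. Over all genes with a value, 0.893% were at least 2-fold lower and 1.42% at least 2-fold higher. At these shares a list of this size, here or below, would hold few or none past 2-fold. Of 19 Wnt ligands, 7 were measured on both arrays and 0 passed 2-fold. Wnt4 had the largest difference, -0.98, with -1.01 and -0.95 in its 2 probes, and Wnt5a, a ligand of the non-canonical branch, had -0.41. On the spike-in scale Wnt4 was -0.50 and Wnt5a 0.07. Of 16 receptors and co-receptors 11 were measured. Among these Fzd9, a Frizzled receptor, was 2.21-fold lower with signals of 2281 and 1164. The co-receptor Ptk7 had -0.66, or -0.18 on the spike-in scale. The co-receptors Lrp5 and Lrp6 had -0.00 and 0.33. The receptor Ror2 was well above background in control but not in N2ICD muscle (46.5 and 29.4). Its value of 1.78-fold lower is the ratio of these signals after scaling, with the N2ICD spot dim, and is not a minimum.

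Of 21 antagonists 9 were measured, with 5 below 0 and 4 above, and 12 were above background on neither array, Dkk1, Sost and Dkk2 among them. Besides Frzb, Dkkl1, a relative of the Dickkopf proteins, was 2.09-fold lower with signals of 78.5 and 42.2, which was 1.42-fold after normexp correction. Of the 4 measured antagonists outside the chosen set the median was -0.29. Of 12 genes of Wnt secretion and the R-spondin arm 5 were measured and 0 passed 2-fold. The Wnt carrier Wls had 0.46 and the R-spondin receptor Lgr4 had -0.56, or 0.94 and -0.08 on the spike-in scale.

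Of 24 intracellular components 22 were measured, 11 on each side of 0, with a median of -0.01. Bcl9, a β-catenin co-activator, was 2.69-fold lower with dim signals of 78.0 and 32.7, which was 1.61-fold after normexp correction, and its other probe was not well above background. On the spike-in scale Fzd9, Dkkl1 and Bcl9 lay at -0.66, -0.59 and -0.95, within 2-fold. Dvl3, which passes the signal from Frizzled to the destruction complex, had -0.89, or -0.41 on the spike-in scale. Of 18 genes known as targets of β-catenin 10 were measured, and 0 passed 2-fold. Of these 8 lay below 0 and 2 above, and the median was -0.16, against 0.01 over all genes. On the spike-in scale these medians were 0.32 and 0.48. The cell cycle gene Ccnd1 had -0.50 and Ccn4 -0.43, or -0.02 and 0.05 on the spike-in scale. The targets Lef1, Tcf7, Sp5 and Lgr5 were above background on neither array.

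**Figure D4:**
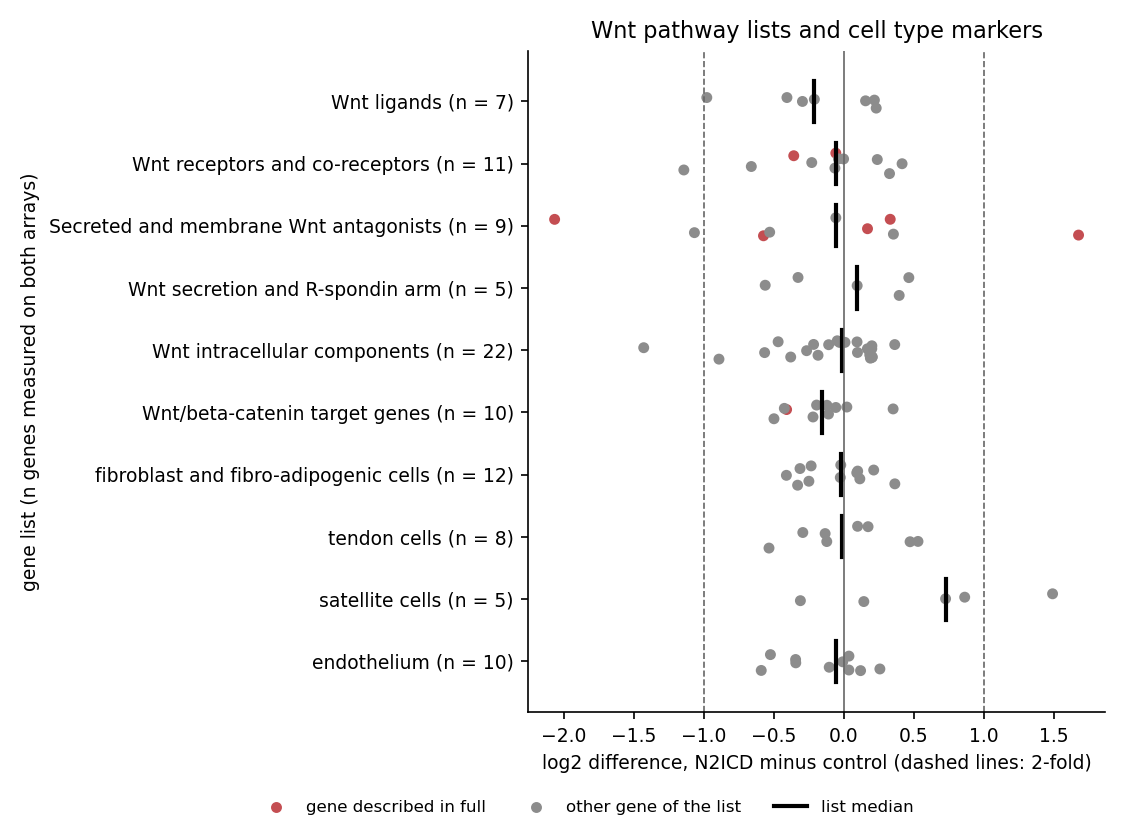
Log2 difference, N2ICD minus control, of each gene measured on both arrays in 6 Wnt pathway lists and 4 lists of cell type markers, with the list median as a black bar and dashed lines at 2-fold. The antagonist list spans -2.06 (Frzb) to 1.67 (Dkk3), and its median of -0.06 lies near 0 as do most others, the satellite cell list at 0.73 excepted.

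Whole muscle holds connective tissue, vessels and nerve besides fibres, and in such a sample fewer cells of a type and less RNA per cell cannot be told apart. Markers of those cells were therefore set beside the Frzb value, by list. All 12 fibroblast and fibro-adipogenic markers were measured on both arrays, with a median of -0.02 and 0 past 2-fold, and Col1a1 had -0.41 and Gsn 0.36. Their summed scaled signals were 725 in control and 617 in N2ICD. Such sums, here and below, join different probes and are carried by the brightest, here those of Col1a2, Dcn and Col1a1, at -0.31, -0.23 and -0.41. Over the list 7 genes lay below 0 and 5 above. Tendon markers had a median of -0.01 over 8 of 10 measured genes, with sums of 89.3 and 77.7 and 0 past 2-fold, Chad at -0.53 and Cilp2 at 0.53 being the outermost. Mkx and Tnc were above background on neither array. The lowest value in either list was -0.53. Frzb, at -2.06, was chosen for its low value, and the cells that express it were not identified here. Whether cell number has a part in its value was not tested. On the spike-in scale the medians of these 2 lists were 0.45 and 0.47, near the 0.48 of all genes. Cilp2 lay at 1.01 on that scale, past 2-fold, and Chad at -0.06.

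Endothelial markers, beside which the Fzd4 value of -0.36 stands, had a median of -0.06 over 10 genes and sums of 69.7 and 64.7. Of these, 6 lay below 0, Emcn at -0.59 and Kdr at -0.52 lowest, and 4 above, up to Flt1 at 0.26. On the spike-in scale Emcn and Kdr were -0.11 and -0.05. Satellite cell markers had a median of 0.73 over 5 of 8, with sums of 62.5 and 160, and the integrin Itga7, a gene of fibres too, was 2.81-fold higher. Itga7 made up 50.3 and 141 of these sums, and the other 4 genes 12.2 and 19.4. Sdc4 had 0.86 and Vcam1 -0.31. Pax7, the defining satellite cell factor, had 0.14, Myf5 and Calcr were above background on neither array, and Chodl was above background in N2ICD alone. Pericyte and smooth muscle markers had a median of 0.07 (sums of 72.3 and 72.5, Cspg4 at 0.75 and Myh11 at 0.26). Of these, 3 lay below 0 and 5 above. Nerve and Schwann cell markers had 0.04 (9.05 and 9.78, Ncmap at 0.86 and S100b at 0.78), and 3 genes lay below 0, down to Sox10 at -0.32, and 4 above. Ncmap and S100b were dim in control, with signals of 83.9 and 66.8, and lay at 0.50 and 0.44 after normexp correction. Adipocyte markers had -0.01 (47.05 and 55.01, Cidec and Fabp4 at 0.37), without Lep, and 3 genes lay below 0, down to Plin1 at -0.30, and 3 above. Macrophage markers had -0.18 (7.82 and 6.09, Csf1r at -0.61 and Cd68 at -0.44), without Cd163, and 3 genes lay below 0 and 3 above, up to Lyz2 at 0.40. Muscle fibre markers had -0.21 (18954 and 16861), with Myh7 at 2.21 and Myh2 at 1.30, and 9 genes lay below 0 and 4 above. The spike-in scale, which raises every gene alike, put Sdc4, Cspg4, Ncmap and S100b at 1.34, 1.23, 1.34 and 1.25, past 2-fold. The part of any of these cell types in the Wnt gene values was not tested.

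The 5 genes with a proper symbol whose difference lay nearest to that of Frzb, over the 2 arrays, were the carbonyl reductase Cbr2 at -2.07, the leucine-rich repeat protein Lrtm1 at -2.17, the amino acid oxidase Il4i1 at -1.91, the kinase Pak1 at -1.91 and the peptide ligand Apln at -1.78. None belongs to the Wnt lists, but these lists hold few of the 13662 genes measured, so this is not read as a result. With a single pair of arrays, likeness means a similar difference and nothing more.

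The Frzb promoter is shown because Frzb had the largest difference of the set. RBPJ is known as the DNA-binding partner of the intracellular part of Notch receptors. The 250 bases before the start of the gene (RefSeq, GRCm38.p6, chr2:80447397-80447646, minus strand) are given with matches to 2 short motifs in capitals, the RBPJ core GTGGGAA and the core of TCF/LEF, the factors that β-catenin joins, which is CTTTGA. Both strands were searched.
Frzb promoter: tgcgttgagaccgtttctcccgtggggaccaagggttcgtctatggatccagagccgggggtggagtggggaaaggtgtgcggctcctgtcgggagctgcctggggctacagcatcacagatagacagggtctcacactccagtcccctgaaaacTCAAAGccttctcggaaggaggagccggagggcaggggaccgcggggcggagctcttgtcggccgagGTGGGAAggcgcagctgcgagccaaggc
The RBPJ core was matched 1 time, 28 to 22 bases before the start, and the TCF/LEF core 1 time on the other strand, 95 to 90 bases before it. Of 32851 such windows of 250 bases, 5.42% held the RBPJ core and 13.8% the TCF/LEF core. Promoter sequences matched 7 of the 10 genes. Sfrp2, Sfrp5, Dkk2, Axin2, Fzd4 and Fzd7 held 0 matches to either motif in this window. The motifs were chosen after the Frzb sequence had been seen, so this contrast is not read as particular to Frzb. Sfrp1, Sfrp4 and Dkk3 were not matched. Another motif, the N-box CACNAG known for Hes repressors, was matched 0 times in the Frzb window and 1 time each in those of Sfrp2, Sfrp5 and Fzd7, and it occurs in 36.7% of all windows. These are matches of letters, not sites of binding.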

How the data were processed

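Total RNA of 2 tibialis anterior samples, 1 control and 1 N2ICD, was labelled with Cy3 and hybridised to 1 array each, per the labels' protocols. Intensity was read from the deposited scanner output, which per the file headers comes from version 10.10.1.1 of Agilent Feature Extraction and is background-subtracted, without normalization between arrays. A deposited table of the authors gives a fold ratio with its direction and, for each array, a log2 value, and its normalization is not stated in the sources used here. Probe coordinates in the scanner output use mm9.

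Each array was scaled to its 75th percentile over 59305 non-control spots (169 in control, 190 in N2ICD muscle). After 215 outlier spots were left out, spots were averaged to 55672 probes. A gene's value averages those of its probes that passed the background flag in both samples. A gene above background on 1 array alone gets a bound, against the higher of the dim probe's value and the lowest value well above background. Names came from RefSeq (GRCm38.p6) by accession for 31161 spots. Members, lists and alternatives were chosen with earlier results of these data known. The genes named from each list are those past 2-fold, or the 2 with the largest differences where fewer passed. From each cell type list the 2 with the largest differences are named, and the 5 genes nearest to Frzb. Lrp5, Lrp6, Hes1, Hey1, Heyl, Nrarp, Pax7, Vcam1, Flt1, Plin1, Lyz2, the genes below background and the chromosomal neighbours were chosen after values were seen. So were Col1a2, Dcn and Sox10. The 3 motifs were chosen after the Frzb promoter sequence had been seen. Normexp used an offset of 50, and the spike-in scale 7 probes. The steps were tested on simulated data. Versions used were limma 3.58.1 in R 4.3.3, and pandas 2.3.3, numpy 2.4.6 and matplotlib 3.10.9 in Python 3.11.15. The number of arrays limits the precision.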

Additional observations from a re-analysis of the deposited data

How the results depend on the processing

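No paired analysis was possible because each group holds 1 array. The Frzb difference of -2.06 moved beyond the spot noise under normexp background correction (-1.31) and on the spike-in scale (-1.59), and under the other 5 ways of processing it stayed within the spot noise. The count of members past the threshold was 1 on the lower side under all 12 alternatives, which include thresholds of 1.5-fold and 4-fold. On the higher side it was 1 in 11 of them and 0 with the 4-fold threshold. Frzb and Dkk3 have 1 probe each, above background on both arrays, so the filters on dim probes and the choice of the brightest probe cannot change their values. Frzb was chosen for its low value, so these counts are a description. Over the 7 treatments of the signals Axin2 ran from -0.42 to 0.07, Fzd4 from -0.42 to 0.12 and Fzd7 from -0.07 to 0.42. The values above 0 came from the spike-in scale, which moves all genes alike, and for Fzd7 also from median scaling (0.01). With no filter on dim probes Axin2 was 0.23 and Fzd7 0.46. On the spike-in scale 25 genes were at least 2-fold lower and 897 higher, so that 97.3% of genes past 2-fold were higher against 61.4% in the main scaling. Over all genes the counts of 2-fold lower and higher were 122 and 194 in the main scaling, 43 and 81 after normexp correction, 328 and 364 with probes above background on at least 1 array and 968 and 835 with no filter on dim probes. A threshold of 1.5-fold gave 661 and 694, and one of 4-fold 9 and 20. Signals near background limit Axin2 and Sfrp2, and leave Sfrp1 and Dkk2 without a value.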

Other observations

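The genes next to Frzb and Dkk3 on their chromosomes, by the order of protein-coding genes in RefSeq (GRCm38.p6), were looked at after the values of both were known. Next to Frzb, Dnajc10, a chaperone of the endoplasmic reticulum, had a difference of -0.46 (N2ICD minus control, log2), with -0.60 and -0.33 in its 2 probes, and Nckap1, a regulator of the actin skeleton, had -0.07, with -0.02 and -0.12. Next to Dkk3, Usp47, a ubiquitin protease, had 0.26 and Mical2, which oxidises actin, had -0.24, with 0.06 and -0.55 in its 2 measured probes. None of these 4 neighbours passed 2-fold. Over all genes 0.893% were at least 2-fold lower and 1.42% at least 2-fold higher, so this is not read as a result about either locus.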
